A study of Mus musculus with 12 samples.

Results

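The genes described here are those of the deposited table whose symbols begin with Gria, Grin or Grm and a digit, together with Syn2. They were 8 of the 770 genes: the AMPA receptor subunit genes Gria1, Gria2 and Gria4, the NMDA receptor subunit genes Grin2a and Grin2b, the metabotropic glutamate receptor genes Grm2 and Grm3, and Syn2, which encodes synapsin II. All 8 lay above the floor of 20 normalized counts in every mouse, so that all were tested. The values come from the NanoString nCounter assay, in which colour-barcoded probes are counted molecule by molecule without amplification, on total RNA of the hippocampus. The 4 groups of 3 mice were females with the genotype mtOgg1, control females, males with the genotype mtOgg1 and control males, all C57BL6/J mice aged 13 months. By the series title, the mtOgg1 genotype expresses the DNA repair enzyme OGG1 in mitochondria. The promoter that drives it, the cells that carry it and the litters of the mice are not given in the sources used here. Animals of the first kind are called mtOGG1 mice below. In tissue RNA, fewer cells of a type and less RNA per cell cannot be told apart.

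Glutamate is the main excitatory transmitter of the hippocampus. AMPA and NMDA receptors are ion channels assembled from several subunits. AMPA receptors carry fast excitation, and NMDA receptors admit calcium and set synaptic strength during learning. Metabotropic receptors signal through G proteins, and those encoded by Grm2 and Grm3 couple to Gi and dampen transmitter release. Grm3 is expressed by astrocytes as well as neurons. Synapsins coat synaptic vesicles and hold them in reserve near the release site.

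Each mouse had between 281838 and 418467 whole counts in values above the floor, and the counts behind the values of the 8 genes ran from 182 to 3638. Counting error alone then gives a coefficient of variation of 1.66% to 7.41%, which covers counting only. Of the 11 neuron genes listed as markers, all exceeded the floor, whereas none of 13 hippocampal region markers was among the genes analysed here, so that the tissue label was not checked against them. Slc17a6, a vesicular glutamate transporter gene most abundant below the cortex, and Ttr, the transthyretin gene of the choroid plexus, varied widely. Slc17a6 lay between 195 and 1597 normalized counts and Ttr between the floor of 20 and 1525. The 4 mice highest in Slc17a6 were mtOGG1 female 3, control female 3 and mtOGG1 males 1 and 3, at 1208 to 1597 normalized counts, against at most 726 in the other mice. Values that moved clearly when Slc17a6 entered the fit as a covariate are given with it below. Slc17a6 itself averaged higher in mtOGG1 mice, with a log2 fold change of 1.06 over both sexes (limma, adjusted p = 0.401) and 1.37 in males. A fit with this covariate can therefore also take out part of a genotype difference, and the 2 cannot be told apart here.

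The first comparison asked whether transcripts of the glutamate synapse differed between mtOGG1 and control mice. Syn2 was higher in every mtOGG1 mouse than in every control mouse of its sex, and Grm3 averaged lower in mtOGG1 mice, but neither passed the test over all genes. With both sexes together, 0 of the 8 had an adjusted p under 0.05 (limma, Benjamini-Hochberg over 608 genes), against 8 of 608 genes (1.32%). At an unadjusted p under 0.05 there were 2 of the 8, Syn2 and Grm3, against 11.7% of all genes tested. An ordinary linear model with the same adjustment passed 0 of all genes, and so 0 of the 8. Of the 8 values 4 lay above 0 and 4 below, with a median log2 fold change of -0.04, beside -0.01 over all genes tested. In females 0 of the 8 passed, against 0% of all genes, and 0 had an unadjusted p under 0.05, against 2.96%. In males 0 of the 8 passed, against 0.987% of all genes, and 3 (Gria1, Grm3 and Syn2) had an unadjusted p under 0.05, against 13.3%. The ordinary linear model passed 0 of all genes in each sex as well.

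**Figure D1:**
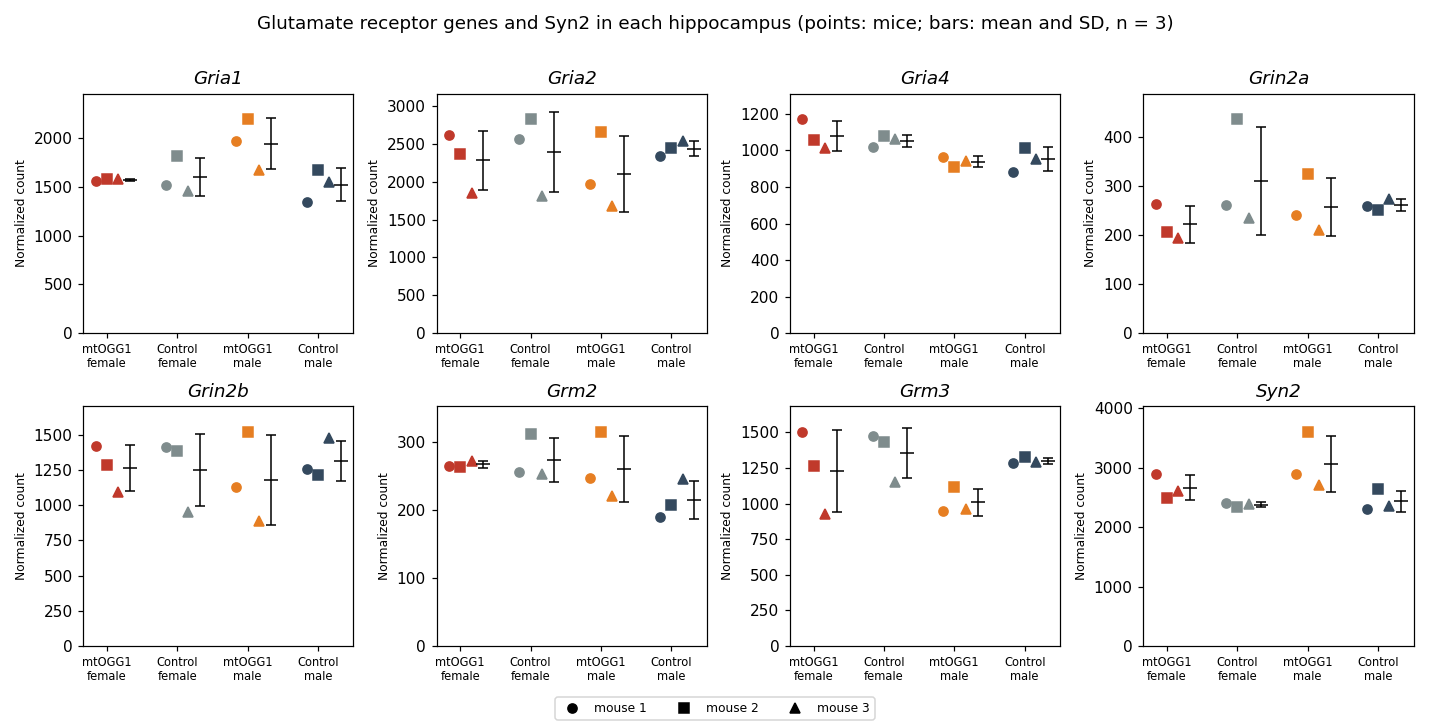
Normalized counts (vertical axes, from 0) of the 8 genes in each of 12 hippocampi, with 3 mice per group and the mean and SD beside the points. Syn2 in mtOGG1 mice lay above the control mice of the same sex in both sexes, and Grm3 in mtOGG1 males below the control males, while the genotypes overlapped in every other case.

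Syn2 stood at 2895, 2482 and 2610.3 normalized counts in mtOGG1 females, against 2410.1, 2332 and 2393 in control females. In males it stood at 2887, 3597 and 2714 in mtOGG1 mice, against 2309, 2641 and 2350 in control mice. The groups did not overlap in either sex, which held for 11 genes higher in mtOGG1 females (1.81%) and for 35 higher in mtOGG1 males (5.76%). Both gaps were narrow, from at most 2410.1 in control females to at least 2482 in mtOGG1 females, and from 2641 to 2714 in males. Of all 12 mice mtOGG1 male 2 was the highest. Over both sexes Syn2 averaged 2864 ± 393 (SD, n = 6) in mtOGG1 mice and 2406 ± 121 (SD, n = 6) in control mice. The log2 fold change was 0.24 (standard error 0.08, 95% interval from 0.07 to 0.42, limma, adjusted p = 0.248). It ranked number 23 of 608 genes by p. The log2 fold change was 0.16 in females, with an interval from -0.08 to 0.40 (limma, adjusted p = 1), and 0.33 in males, with an interval from 0.08 to 0.57 (limma, adjusted p = 0.190). With mtOGG1 female 1 left out, the value in females was 0.10, and with mtOGG1 male 2 left out, that in males was 0.20. Of the 608 genes tested, 8 (1.32%) showed no overlap between the genotypes within either sex with the same direction in both, 7 of them (1.15%) lower in mtOGG1 mice. As deposited, Syn2 was the only higher gene among them (0.164%). It was still among the higher genes after median centring, with Gja1, and after scaling on 12 panel reference genes, with Bcl2l2, Fcer1g, Hif1a and Kcnd1. With Slc17a6 as a covariate the Syn2 value over both sexes was 0.28, and with Ttr as a covariate 0.23.

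The start region of Syn2 is shown because it was the member with the smallest p over both sexes, and those of Grm3 and Gria2 because both genes varied together across the mice, as given below. Reference windows of 250 bases before to 50 after the annotated start (RefSeq, GRCm38.p6) were found for 5 of the 8 genes. Grin2b and Grin2a, which varied more closely with Gria2 than Grm3 did, were not among them. Capitals mark matches on either strand to the GC box GGGCGG, bound by Sp factors, or to the core of nuclear respiratory factor 1 (GCGCA, any base, GCGC). That factor activates nuclear genes of mitochondrial proteins and has been reported to bind the Gria2 promoter in rodent neurons.
Syn2 (chr6:115134652-115134951, plus strand): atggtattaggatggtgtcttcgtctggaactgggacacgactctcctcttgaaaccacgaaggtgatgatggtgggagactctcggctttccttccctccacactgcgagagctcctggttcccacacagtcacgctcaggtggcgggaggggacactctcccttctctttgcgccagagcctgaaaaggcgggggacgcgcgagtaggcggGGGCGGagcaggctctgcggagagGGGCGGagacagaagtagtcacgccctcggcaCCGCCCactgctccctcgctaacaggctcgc
Grm3 (chr5:9725303-9725602, minus strand): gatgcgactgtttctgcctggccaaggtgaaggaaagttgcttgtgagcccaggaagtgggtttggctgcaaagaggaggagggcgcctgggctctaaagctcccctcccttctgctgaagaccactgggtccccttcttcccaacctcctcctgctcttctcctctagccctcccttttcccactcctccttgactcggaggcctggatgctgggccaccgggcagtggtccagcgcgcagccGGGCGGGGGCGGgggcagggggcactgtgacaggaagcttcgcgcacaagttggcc
Gria2 (chr3:80802786-80803085, minus strand): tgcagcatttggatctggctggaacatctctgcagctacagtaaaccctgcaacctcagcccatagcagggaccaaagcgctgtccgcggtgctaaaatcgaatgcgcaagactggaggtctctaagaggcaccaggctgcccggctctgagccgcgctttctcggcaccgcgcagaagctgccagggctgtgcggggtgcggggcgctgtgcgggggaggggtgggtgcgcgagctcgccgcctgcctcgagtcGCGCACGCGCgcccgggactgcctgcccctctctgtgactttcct
The Syn2 window printed here held 3 GC boxes, the Grm3 window 2 and the window of Grm2, which is not shown, 4. A second Syn2 window, at the annotated start chr6:115238744-115239043 on the plus strand, held 0. The GC box was present in 35.7% of the 32851 windows of the reference table. The Gria2 window held 1 match to the nuclear respiratory factor 1 core, present in 4.6% of the windows. A cyclic AMP response element, TGACGTCA, was searched as well and was in none of the members' windows and in 1.79% of all. These matches describe the sequence and are no evidence of binding in these samples.

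The 3 AMPA receptor genes had log2 fold changes of different sign, and none passed. Gria1, whose product is the main partner of the Gria2 product in hippocampal pyramidal cells, stood at 1974, 2197 and 1673 normalized counts in mtOGG1 males, against 1349.8, 1678 and 1552 in control males. All but mtOGG1 male 3 were above every control male. In females the values were 1564, 1579.8 and 1579.9 in mtOGG1 mice, against 1518, 1822 and 1458 in control mice, which enclosed them. The log2 fold change was 0.35 in males, its 95% interval running from 0.09 to 0.61 (limma, adjusted p = 0.189), and -0.02 in females, with an interval from -0.28 to 0.25 (limma, adjusted p = 1). Over both sexes it was 0.17, with an interval from -0.02 to 0.35 (limma, adjusted p = 0.471), and 0.19 with Slc17a6 as a covariate.

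Gria2, whose edited product makes AMPA receptors nearly impermeable to calcium, stood at 2619.9, 2367 and 1853 normalized counts in mtOGG1 females, against 2561, 2822 and 1805 in control females. In males it stood at 1975, 2660.4 and 1681 in mtOGG1 mice, against 2332, 2443 and 2530.1 in control mice. Groups overlapped in both sexes, and the 4 lowest values belonged to the 4 mice highest in Slc17a6. How many other genes had this order was not counted. The log2 fold change was -0.15 over both sexes, with an interval from -0.43 to 0.13 (limma, adjusted p = 0.703), and 0.06 with Slc17a6 as a covariate. Leaving out 1 mouse gave values from -0.24 (without control female 3 or mtOGG1 male 2) to -0.07 (without mtOGG1 male 3), with -0.08 without control female 2 or mtOGG1 female 3. Gria4, a subunit gene prominent in interneurons, averaged 1009 ± 94.6 (SD, n = 6) in mtOGG1 mice and 1002 ± 73.0 (SD, n = 6) in control mice. Its log2 fold change of 0.01 had the narrowest interval of the 8 genes, from -0.13 to 0.14 (limma, adjusted p = 0.966), and its sign turned after median centring.

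The NMDA receptor genes encode the regulatory subunits, of which that of Grin2b predominates early in life and that of Grin2a rises after birth. Grin2a stood at 264, 207 and 194 normalized counts in mtOGG1 females, against 261, 436 and 234 in control females. In males it stood at 240.4, 324 and 210.1 in mtOGG1 mice, against 260.4, 251 and 274 in control mice. Control female 2 was the highest of all mice, and the groups overlapped in both sexes. The log2 fold change was -0.44 in females, with an interval from -0.89 to 0.01 (limma, adjusted p = 1), and -0.17 with control female 2 left out. Over both sexes it was -0.24, with an interval from -0.56 to 0.08 (limma, adjusted p = 0.533), -0.11 without control female 2 and -0.08 with Slc17a6 as a covariate. Grin2b averaged 1221 ± 232 (SD, n = 6) in mtOGG1 mice and 1282 ± 189 (SD, n = 6) in control mice. Its log2 fold change of -0.08, with an interval from -0.36 to 0.21 (limma, adjusted p = 0.878), turned to 0.15 with Slc17a6 as a covariate.

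Of the metabotropic receptor genes, Grm3 stood at 947, 1116 and 964 normalized counts in mtOGG1 males, against 1285, 1326 and 1288 in control males. The male groups did not overlap, as was the case, in the direction of lower values in mtOGG1 mice, for 73 of the 608 genes tested (12%). In females Grm3 stood at 1501, 1265 and 927 in mtOGG1 mice, against 1473, 1432 and 1152 in control mice. Female groups overlapped, with mtOGG1 mice both highest and lowest. The log2 fold change was -0.37 in males, with an interval from -0.69 to -0.05 (limma, adjusted p = 0.281), and -0.16 in females, with an interval from -0.48 to 0.17 (limma, adjusted p = 1). Over both sexes it was -0.26, with an interval from -0.49 to -0.03 (limma, adjusted p = 0.381). With Slc17a6 as a covariate these values were -0.17 in males and -0.11 over both sexes, with Ttr -0.23 and -0.19, and without mtOGG1 female 3 the value in females was 0.04.

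Grm2, whose receptor sits mainly on presynaptic terminals, averaged 264 ± 31.0 (SD, n = 6) in mtOGG1 mice and 244 ± 42.4 (SD, n = 6) in control mice. Its log2 fold change was 0.12 over both sexes, with an interval from -0.10 to 0.34 (limma, adjusted p = 0.674). In males it was 0.27, with an interval from -0.03 to 0.58 (limma, adjusted p = 0.432), and in females -0.03 (limma, adjusted p = 1). Without mtOGG1 male 2 the value was 0.13 in males and 0.05 over both sexes, and without control male 1 it was 0.08 over both sexes. With Slc17a6 as a covariate it was 0.19 over both sexes.

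**Figure D2:**
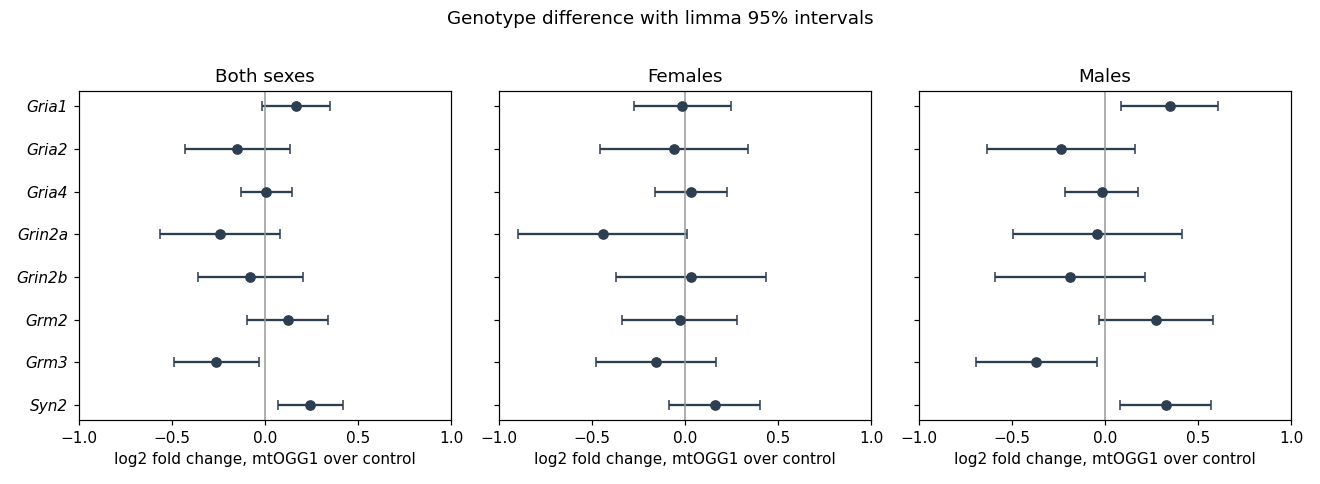
Log2 fold change of mtOGG1 over control mice (horizontal axes) for each gene, with 95% intervals from limma, for both sexes together and for each sex. The intervals exclude 0 for Grm3 and Syn2 over both sexes and for Gria1, Grm3 and Syn2 in males, and no gene passed after adjustment over all genes.

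Ratios between genes of a family within the same mouse were compared because they do not depend on the scaling of that mouse. Their absolute size has no meaning, since each probe has its own efficiency. The ratio of Gria1 to Gria2 was 0.9995, 0.826 and 0.995 in mtOGG1 males, against 0.579, 0.687 and 0.613 in control males, with no overlap. In females it was 0.597, 0.667 and 0.852 in mtOGG1 mice, against 0.593, 0.646 and 0.808 in control mice, which overlapped. The mean log2 difference over both sexes was 0.31, made of 0.05 in females and 0.58 in males, and did not pass (two-sided exact permutation of genotype within sex over 400 orders, p = 0.055, adjusted p = 0.138 over 5 ratios, smallest possible p = 0.005). The female with the highest ratio in each genotype, female 3, was also the one highest in Slc17a6, as were the males with the highest ratios, mtOGG1 males 1 and 3. With Slc17a6 as a covariate, a setting added after seeing the data and without a test, the log2 difference was 0.12 over both sexes and 0.33 in males.

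The ratio of Grm2 to Grm3 was 0.261, 0.282 and 0.228 in mtOGG1 males, against 0.148, 0.156 and 0.190 in control males, also without overlap. In females it was 0.176, 0.209 and 0.294 in mtOGG1 mice, against 0.174, 0.217 and 0.220 in control mice. The log2 difference over both sexes was 0.38, with 0.13 in females and 0.64 in males (exact permutation, p = 0.055, adjusted p = 0.138), and 0.29 over both sexes with Slc17a6 as a covariate. For each of these 2 ratios 4 of the 6 mtOGG1 mice lay above all control mice of their sex. The log2 difference of the ratio of Grin2a to Grin2b was -0.47 in females and 0.15 in males (exact permutation over both sexes, p = 0.35, adjusted p = 0.35). The remaining ratios, Gria1 to Gria4 and Gria2 to Gria4, had log2 differences of 0.16 and -0.16 (exact permutation, adjusted p = 0.317 and 0.35). Between mtOGG1 and control males 4 of the 5 ratios did not overlap, namely Gria1 to Gria2, Grm2 to Grm3, Gria1 to Gria4 and Grin2a to Grin2b. In females all 5 overlapped. As written these 4 ratios were higher in mtOGG1 males, but the direction follows from which gene is the numerator. For Grin2a to Grin2b the gap was narrow, from at most 0.207 in control males to at least 0.213 in mtOGG1 males. The share of other gene pairs without overlap was not taken. Of single genes, 35 of 608 (5.76%) were higher and 73 (12%) lower without overlap in mtOGG1 males. These are shares of genes and not of ratios, so whether 4 of 5 is unusual for gene pairs is not known. The 3 Gria ratios share genes and are not independent of each other. With Slc17a6 as a covariate the difference of Gria2 to Gria4 over both sexes was 0.08, of the opposite sign. Of the 5 ratios 0 passed, and 0 had an unadjusted p under 0.05.

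**Figure D3:**
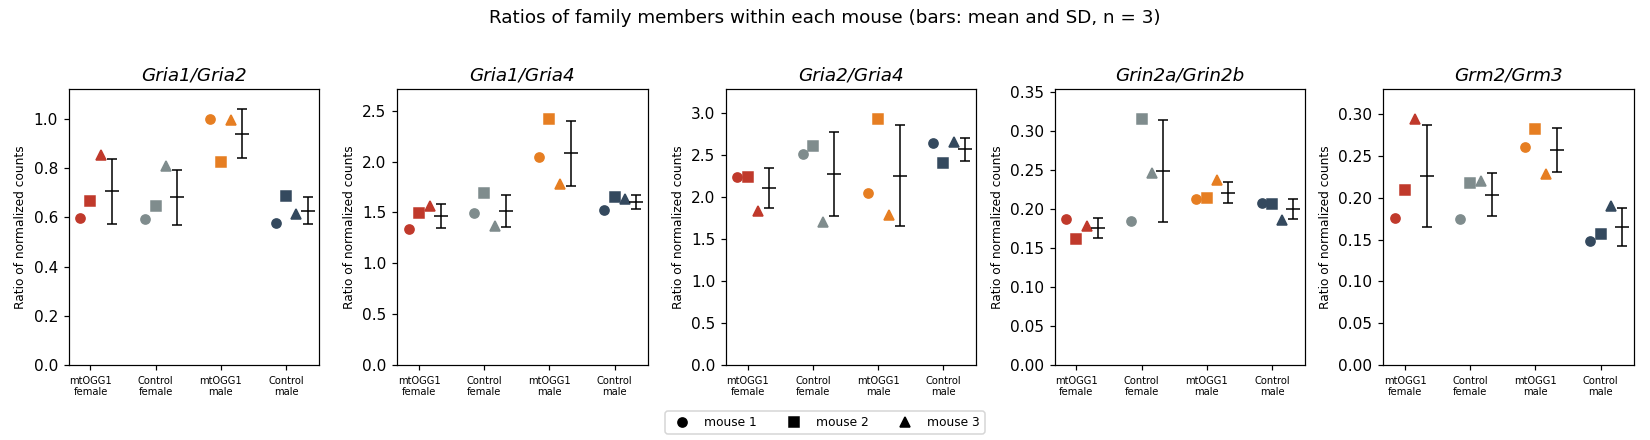
Ratio of normalized counts of 2 genes of a family (vertical axes, from 0) in each of 12 mice, with the mean and SD of each group of 3. All ratios but Gria2 to Gria4 were higher without overlap in mtOGG1 males than in control males, and all overlapped in females. The direction of a ratio follows from which gene is its numerator. The share of other gene pairs without overlap was not taken, and no ratio passed its test.

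A further contrast set the genotype difference in females against that in males. Of the 8 genes 0 passed, as of all 608 (0%), and 0 had an unadjusted p under 0.05, against 4.77% of all genes, and an ordinary linear model passed 0. The difference in females minus that in males was -0.36 for Gria1, with an interval from -0.73 to 0.00483 (limma, adjusted p = 0.932), and -0.40 for Grin2a, with an interval from -1.04 to 0.24 (limma, adjusted p = 0.988). For Syn2 it was -0.17, with an interval from -0.51 to 0.18, and for Grm3 0.21, with an interval from -0.24 to 0.67 (limma, adjusted p = 0.988 for each). The values found in males alone are therefore not shown to differ from those in females.

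Between females and males over both genotypes 0 of the 8 genes passed, against 0.658% of all genes, and 1, Gria4, had an unadjusted p under 0.05, against 6.41%, while an ordinary linear model passed 0. Gria4 ran from 1010.6 to 1170.1 normalized counts with a median of 1059 in females, against 884 to 1015 with a median of 947 in males. The sexes overlapped only between the lowest female and the highest male. The log2 difference of females over males was 0.17, with an interval from 0.04 to 0.31 (limma, adjusted p = 0.515), and stayed between 0.14 and 0.20 under all 26 alternatives. Grm2 followed at 0.20, with an interval from -0.02 to 0.42 (limma, adjusted p = 0.773).

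Across the mice, the genes differed in how they moved with Slc17a6. In the 4 mice highest in Slc17a6, Gria2 lay between 1681 and 1975 normalized counts, against 2332 to 2822 in the other mice. Grin2b lay between 886 and 1130.2 in those 4 mice, against 1212 to 1519 in the others, also without overlap. Gria2 and Grin2b varied together within groups (Pearson r = 0.95), so that these splits are not independent. The share of all genes that set the same 4 mice apart was not taken. Fitted beside the 4 group means, the slope of log2 Grin2b on log2 Slc17a6 was -0.22 (standard error 0.05, limma, adjusted p = 0.0167), and that of Gria2 -0.20 (standard error 0.05, limma, adjusted p = 0.0297). These 2 of the 8 genes passed, against 45 of 607 genes (7.41%), of which 13 (2.14%) were lower and 32 (5.27%) higher with more Slc17a6. Grm3 had a slope of -0.15 (limma, adjusted p = 0.0876) and Grin2a one of -0.16 (limma, adjusted p = 0.251). Gria1, Gria4, Grm2 and Syn2 had slopes of -0.02, 0.02, -0.06 and -0.03 (limma, adjusted p from 0.589 to 0.890). Without control female 3 or without mtOGG1 male 2, 0 of the 8 passed, with slopes of -0.16 and -0.17 for Gria2 and of -0.20 and -0.18 for Grin2b. Without mtOGG1 female 3 only Grin2b passed. Grm3 passed as well after median centring, with a slope of -0.21 (limma, adjusted p = 0.003846), after scaling on panel reference genes, with -0.13 (limma, adjusted p = 0.02111), and without control male 2, with -0.19 (limma, adjusted p = 0.04346). Without control female 1, Grin2a passed, with -0.27 (limma, adjusted p = 0.02484). This relation was examined because earlier results had shown the spread of Slc17a6, and the 4 mice highest in Slc17a6 stand apart from the rest.

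**Figure D4:**
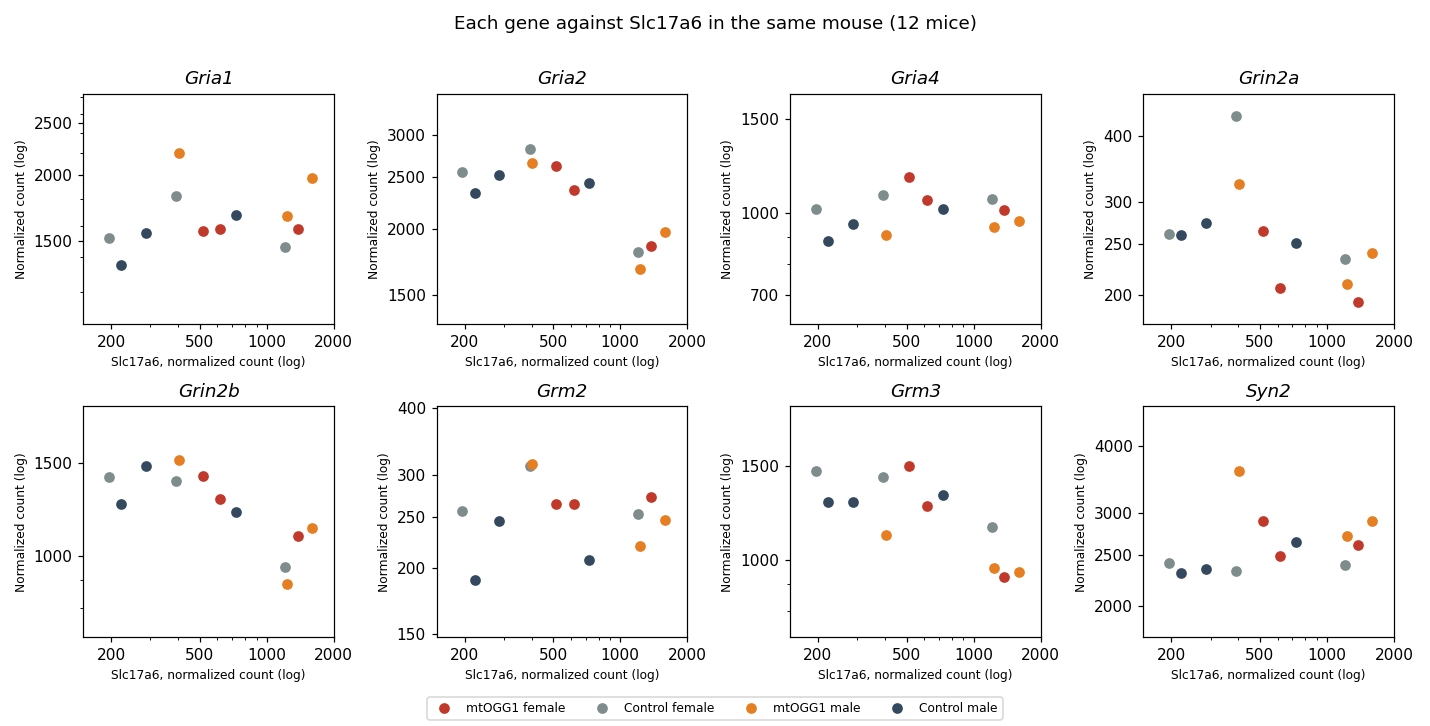
Normalized count of each gene (vertical axes, log scale, all spanning the same fold) against that of Slc17a6 in the same mouse (horizontal axes, log scale), for 12 mice coloured by group. Gria2 and Grin2b were lowest in the 4 mice at 1208 or more of Slc17a6, while Gria4 and Syn2 showed no such order. The share of all genes that set these 4 mice apart was not taken.

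Within groups, the deviations of log2 values from the group mean placed Gria2 and Grin2b closest together, with a Pearson r of 0.95 over the 12 mice, given here as a description. Gria2 and Grin2a had an r of 0.84, Gria2 and Grm3 one of 0.83, and Gria1 and Grm2 one of 0.83. Gria4 had values between 0.03 and 0.43 with the other 7 genes. Outside the 8 genes, the 3 most alike were taken for each gene, and they included Ncor1 (r = 0.94) for Gria2 and Prkce (r = 0.92) for Grin2b. Grin2a was most like the immediate early genes Arc (r = 0.96) and Fos (r = 0.91) and like Ncor1 (r = 0.90). Gria1 was most like Fos (r = 0.84), Kdm6a (r = 0.81) and Xpnpep1 (r = 0.79), and Grm2 like Kdm6a (r = 0.86), Bdnf (r = 0.85) and Fos (r = 0.84). Grm3 was most like Pak1 (r = 0.97), Asph (r = 0.96) and Dlg1 (r = 0.96). Syn2 was most like Dnmt1 (r = 0.94), Cd36 (r = 0.88) and Irf2 (r = 0.86), and Gria4 like Ralb (r = 0.95), Cox5b (r = 0.94) and Rps21 (r = 0.93). All genes of a mouse share its scaling factor and its dissection, and these genes were picked as the highest of all genes tested.

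Other genes of the glutamate synapse were taken from lists. Of 15 tested genes for postsynaptic scaffolds and signalling, 0 passed over both sexes. Their log2 fold changes had a median of -0.09, beside -0.01 over all genes, with 6 above 0 and 9 below. The 4 with the smallest p all had negative values. They were Homer1, a scaffold of metabotropic receptors whose short form is activity-induced, at -0.67 (limma, adjusted p = 0.214), Dlg1, a scaffold that binds AMPA receptor subunits, at -0.34 (limma, adjusted p = 0.286), Camk4, a nuclear calcium-dependent kinase, at -0.45 (limma, adjusted p = 0.374), and Nrgn, which binds calmodulin in dendrites, at -0.34 (limma, adjusted p = 0.407). In males Homer1, Dlg1 and Camk4 had values of -0.85, -0.55 and -0.81 (limma, adjusted p = 0.196, 0.145 and 0.155).

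Of 4 tested genes in the list for glutamate transport and metabolism 0 passed. Slc17a6 averaged 956 ± 505 (SD, n = 6) in mtOGG1 mice and 505 ± 395 (SD, n = 6) in control mice (limma, adjusted p = 0.401), while for Slc17a7, the vesicular transporter of cortical and hippocampal pyramidal cells, the value was -0.04 on the log2 scale (limma, adjusted p = 0.907). The astrocyte glutamate transporter gene Slc1a3 had a value of 0.01 (limma, adjusted p = 0.959). Of 2 tested genes in the list for presynaptic vesicles 0 passed, and Syp, the synaptophysin gene, had a value of 0.11 (limma, adjusted p = 0.635), beside 0.24 for Syn2. The purine receptor genes P2ry12 and P2rx7, the 2 tested of other transmitter receptors, had values of 0.05 and -0.02 (limma, adjusted p = 0.885 and 0.941). Of 8 tested immediate early genes 3 passed over both sexes, against 8 of 608 genes (1.32%), and 6 of their values lay below 0 and 2 above. The 3 were all lower in mtOGG1 mice, namely Arc (-1.70, limma, adjusted p = 3.87e-04), Fos (-1.62, limma, adjusted p = 5.52e-04) and Egr1 (-0.88, limma, adjusted p = 0.0486). Ptgs2 had a value of -0.50 (limma, adjusted p = 0.0722).

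Ttr stood at 1173, 1361 and 1525 normalized counts in mtOGG1 males, against 35.6, 1510.2 and 336 in control males. All mtOGG1 males were thus high in Ttr, as was control male 2. Cell type markers were set beside the values in males, where the folds of Gria1, Grm3 and Syn2 were largest among the 3 genotype comparisons. The summed level of 11 neuron genes (Kcnj10 among them is mainly glial) ran from 12102 to 14145 normalized counts in mtOGG1 males and from 12809 to 13518 in control males, with overlap. That of 8 astrocyte genes ran from 7439 to 7662 in mtOGG1 males and from 6393 to 7792 in control males. That of 19 oligodendrocyte genes ran from 22279 to 31528 in mtOGG1 males and from 17115 to 23424 in control males. In males 17 of these 19 genes had log2 fold changes above 0 and 2 below, with a median of 0.35, beside -0.02 over all genes. Among them 1 passed, higher in mtOGG1 males, against 0.987% of all genes. The sum of 7 endothelial genes was 662 to 758 in mtOGG1 males, below the 873 to 986 of control males. The sum of 17 microglia genes was 4993 to 5029.8 in mtOGG1 males and 4429 to 5313 in control males. No listed marker stood at the floor in every mouse, and the part of these cell types in the values of the 8 genes was not tested.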

How the data were processed

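Hippocampal RNA of 12 mice was read on an nCounter panel. Per the series' design text, the authors used the nCounter Advanced Analysis tools. The deposited signal values are normalized counts: those above 20 equal a whole count multiplied by 1 factor per mouse (0.82 to 1.27, within 0.01 for 100% of values), and lower ones stand at 20. No source used here gives the choice of factors. Groups come from the sample titles, and p-values set the group differences against the spread between these samples. In limma that spread is pooled over the 4 groups and moderated over all genes.

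limma 3.58.1 (R 4.3.3) was run on log2(value + 1) with 4 group means and a variance trend, on the 608 genes above 20 in at least 3 mice, with Benjamini-Hochberg adjustment. Folds on this scale understate changes near the floor. Ratios were tested by exact permutation in Python 3.11.15. In simulated data 605 genes passed the filter, among them 98 changed 1.5-fold and 100 changed 2-fold over both sexes. Of these 98 genes, 89.8% were recovered. Changed genes that failed the filter were not counted. So many changed genes ease the adjustment, and the noise was drawn for each gene alone, without variation shared by a mouse. This share therefore does not give the power of the tests of the 8 genes. Named genes are the 8 members, for each the 3 genes most correlated with it, up to 4 genes of smallest p from each synapse or immediate early list, and Slc17a6, Ttr and Arc. The genes that share with Syn2 the lack of overlap after rescaling were named after their values were seen. The members and lists were chosen with earlier results of these data known. Alternatives changed the pseudocount, filter, scaling, variance model, weights, samples, replicate block and covariate. Ttr as a covariate, Slc17a6 as a covariate of the ratios and the slope on Slc17a6 were added after seeing the data. Some genes that this rule names are not reported here.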

Additional observations from a re-analysis of the deposited data

Results flagged for a closer look

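Gria1 was picked out because every mtOGG1 female lay below the mean of the control females, and every mtOGG1 male above the mean of the control males. The female difference minus the male difference was -0.36 on the log2 scale, and the interaction test did not pass (limma, adjusted p = 0.932). It stayed between -0.47 and -0.27 under 26 alternatives. Groups of 3 mice were not examined for outlying samples.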

How the results depend on the processing

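In 4 of the 5 contrasts 0 of the 8 genes passed under every alternative run, including the replicate block and the 12 fits that each left out 1 mouse. In males 0 passed in the report, 1 (Syn2, log2 fold change 0.38, limma, adjusted p = 0.04997) after scaling on panel reference genes, and 3 (Syn2, Gria1 and Grm3) with sample weights estimated gene by gene, a fit that called 74 genes in all against 6. With 1 mouse left out the count in males stayed at 0. The count of ratios that differed stayed at 0 under pseudocounts of 5 and 20, in pairs of the same number and without any 1 mouse. Of the 8 genes 2 passed in the slope on Slc17a6. This count was 0 to 3 with 1 mouse left out, and 3 after median centring or scaling on panel reference genes, with Grm3 added. Values near 0 changed sign without passing in either direction: over both sexes Gria4 in 7 of 26 alternatives, Grin2b in 3 and Gria2 in 1, and in males Grin2a in 4, Gria4 in 3, Grin2b in 2 and Gria2 in 1 of 27. In females Gria1, Gria2 and Grin2b changed sign in 3 each, Grm2 in 2, and Gria4 and Grm3 in 1 each of 27. In the contrast of sexes Grin2b changed sign in 8, Grin2a in 6 and Gria2 in 4 of 26, and in the interaction Gria2 and Gria4 in 1 each of 26. Syn2 kept its sign throughout these contrasts, with values over both sexes from 0.18 to 0.29 (limma, adjusted p from 0.0516 to 0.455). The replicate numbers do not establish pairs: deviations of mtOGG1 and control mice of 1 sex and number correlated from -0.34 to 0.56. The block left the count of passing genes at 0 in each contrast. Fits without 1 mouse leave 2 in its group, whose spread is taken from all groups. The cause of these changes was not tested. The 3 mice per group limit the precision, and so does counting error for the genes of lowest counts, Grin2a and Grm2.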
